A study of Mus musculus with 4 samples.

Results

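The genes described here are 10 enzymes that make serine, carry one-carbon units on folate, or make proline: *Phgdh*, *Psat1* and *Psph* for serine, *Shmt1*, *Shmt2*, *Mthfd1*, *Mthfd2* and *Mthfd1l* for one-carbon units, and *Aldh18a1* and *Pycr1* for proline. They were chosen by gene name among the probes of the array, with earlier results of these data known, and they hold 16 of its 55681 probes. All 10 genes had a probe that passed the filter on dim signals, among 20226 genes that did. Expression was measured in neural stem/progenitor cells (NSPCs) of mouse embryos at embryonic day 13.5, cultured in neurosphere medium with EGF and FGF. Whether the array cells grew in suspension or on coated dishes is not given in the sources used here. The cells were wild-type or Trp53-/-, that is, without the tumour suppressor p53. The paper names Slc:ICR embryos for its NSPCs in general. The Trp53-/- embryos come from a line of *Trp53*-heterozygous mice obtained from a resource centre, whose background strain the paper does not give. Each of the 4 arrays compared RNA of cells treated with 20 µM PJ34, an inhibitor of poly(ADP-ribose) polymerases, with RNA of untreated cells of the same genotype. There were 2 arrays per genotype, from independently prepared RNA. The duration of the treatment and the number of embryos behind each culture are not given in the sources used here.

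In serine synthesis, Phgdh, Psat1 and Psph turn a glycolytic intermediate, 3-phosphoglycerate, into serine in successive steps. The serine hydroxymethyltransferases Shmt1 in the cytosol and Shmt2 in mitochondria split serine into glycine and a carbon unit bound to tetrahydrofolate. Mthfd2 and Mthfd1l pass this unit on to formate inside mitochondria, and Mthfd1 takes formate up again in the cytosol for the synthesis of purines, thymidylate and methionine. In mitochondria, Aldh18a1 makes pyrroline-5-carboxylate from glutamate, and Pycr1 reduces it to proline. Many of these genes are known targets of the transcription factor Atf4, which is active when amino acids are short, and cells that replicate their DNA draw on the folate products.

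The genes the results turn on are introduced by their promoters, shown because members of a pathway may share sequence there. The 250 bases before the start of each gene were read from RefSeq (GRCm38.p6), 5′ to 3′ on the strand of the gene. Capitals mark 3 motifs searched on both strands, TGATGNAA (bound by heterodimers of Atf4 with C/EBP proteins), the E-box CACGTG and the CCAAT box, which reads ATTGG on the opposite strand. No match of a motif overlapped a match of another.
Mthfd1l, chr10:3972825-3973074, plus strand: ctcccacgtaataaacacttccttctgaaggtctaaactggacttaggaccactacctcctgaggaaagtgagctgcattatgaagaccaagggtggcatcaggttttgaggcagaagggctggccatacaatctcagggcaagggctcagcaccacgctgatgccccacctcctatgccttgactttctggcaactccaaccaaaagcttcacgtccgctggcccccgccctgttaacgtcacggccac
Shmt1, chr11:60811266-60811515, minus strand: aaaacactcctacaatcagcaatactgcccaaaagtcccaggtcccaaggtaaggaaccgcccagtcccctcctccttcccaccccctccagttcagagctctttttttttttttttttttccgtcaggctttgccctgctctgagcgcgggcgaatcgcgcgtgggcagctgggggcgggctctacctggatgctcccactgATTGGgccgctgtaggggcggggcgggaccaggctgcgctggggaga
Mthfd2, chr6:83317605-83317854, minus strand: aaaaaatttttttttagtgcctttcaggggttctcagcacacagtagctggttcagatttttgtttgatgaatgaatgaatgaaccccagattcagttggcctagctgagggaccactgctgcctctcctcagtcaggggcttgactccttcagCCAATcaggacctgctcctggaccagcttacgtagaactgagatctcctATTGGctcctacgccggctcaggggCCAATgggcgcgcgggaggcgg
Pycr1, chr11:120643749-120643998, minus strand: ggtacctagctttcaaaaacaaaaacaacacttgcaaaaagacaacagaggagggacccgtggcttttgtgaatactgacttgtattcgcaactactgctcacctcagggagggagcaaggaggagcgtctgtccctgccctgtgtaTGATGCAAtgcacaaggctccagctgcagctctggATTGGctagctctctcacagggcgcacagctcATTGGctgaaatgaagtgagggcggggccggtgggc
Of these, *Mthfd1l* held none of the motifs, *Shmt1* held 1 CCAAT box, *Mthfd2* held 3 and *Pycr1* held 2. TGATGNAA was found in 1 of the 10 members, *Pycr1*, where TGATGCAA begins 103 bases before the start, and in 3.45% of 32851 promoters. The CCAAT box was found in 7 of 10 members and in 33.8% of promoters, and the E-box in 1 member, *Aldh18a1*, and in 6.02% of promoters. A member was counted when any of its promoters held the motif, and *Psat1* has more than 1. Counted by promoter, as the shares are, the CCAAT box was in 7 of the members' 11 promoters and each other motif in 1 of 11. A match is a stretch of letters only, and occupancy was not measured.

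Values are given on the log2 scale, as the ratio of PJ34 to control or as the level in the control channel, and were read from the brightest probe of a gene. A gene was counted as higher or lower when limma's *p* and Storey's *q*, an estimate of the false discovery rate over all 20226 genes, were both below 0.05. The study's own rule adds a change of more than 2-fold. The dyes were not swapped: PJ34 was always Cy5, so that within a genotype a dye bias of a probe and the effect of PJ34 cannot be told apart, whereas such a bias cancels in the difference between genotypes. In bulk RNA, fewer cells that express a gene and less RNA per cell cannot be told apart. The ratio in a genotype, the difference of the ratios and the comparison of untreated cells use the same control channels, and their values are therefore given side by side and not related to each other.

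Of 55681 probes, each channel of an array had between 21508 and 27159 well above background. Across genes, the log2 ratios of the 2 arrays correlated with r = 0.70 in wild-type and 0.64 in Trp53-/-, and genes are not independent replicates. *Trp53* itself had log2 control levels of 8.28 and 8.51 in wild-type and 7.56 and 7.82 in Trp53-/-, so the arrays labelled Trp53-/- were both lower (difference 0.71, *q* = 0.0557), and whether its probe lies in the deleted part is not given in the sources used here. *Cdkn1a*, the p53 target that encodes p21, was higher in untreated wild-type cells by 2.70 (*q* = 0.0104), rose with PJ34 in wild-type by 1.53 (*q* = 9.32e-05) and fell in Trp53-/- by 0.61 (not past the test without Trp53-/- replicate 2). *Mdm2*, another p53 target, rose in wild-type by 1.02 and had -0.031 in Trp53-/-. All 9 neural progenitor markers, *Nes* and *Sox2* among them, were well above background on every array, as were 7 of 7 oligodendrocyte lineage markers and 6 or 7 of 7 astrocyte and neuron markers, against 2 of 5 microglial, 2 of 4 endothelial and 1 of 5 fibroblast markers that passed the filter. On Trp53-/- replicate 2 the PJ34 RNA stood apart from its control in sex-linked genes. The Y-linked *Eif2s3y* and *Ddx3y* were well above background in that RNA, but not in either Trp53-/- control nor in the PJ34 RNA of replicate 1, and *Xist* was above background in those 3 and not in it. The 2 RNAs of this array may come from different embryos, which was not tested, so that embryo and PJ34 cannot be told apart in its ratios. Most counts that rest on this array are also given without it.

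Transcripts of the folate one-carbon enzymes were lower in wild-type NSPCs treated with PJ34. All 5 of them passed the test, lower by 0.26 to 0.94 on the log2 scale; 4 of the 5 remained below the median of all genes by more than 0.1 under median centring of the arrays in place of loess, although that setting put *Shmt2*, *Mthfd1* and *Mthfd2* above 0. *Phgdh* of the serine pathway was lower as well (above 0 under median centring), and the 2 proline enzymes did not pass the test. In total 6 of 10 members were lower and 0 were higher at *p* and *q* below 0.05, where 11.2% of all genes were lower and 13.6% were higher. Since the members were chosen with earlier results of these data known, these counts describe the list and are not a test of it. Under median centring 0 members were lower and 3 higher, where 84 of all 20226 genes were lower and 11950 higher. In Trp53-/- that setting counted 89 of all genes as lower and 13667 as higher. The list counts under median centring given below stand beside these numbers. With loess 0 members were higher at an unadjusted limma *p* below 0.05 as well. The members' median was -0.30, and that of all genes 0.029.

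**Figure D1:**
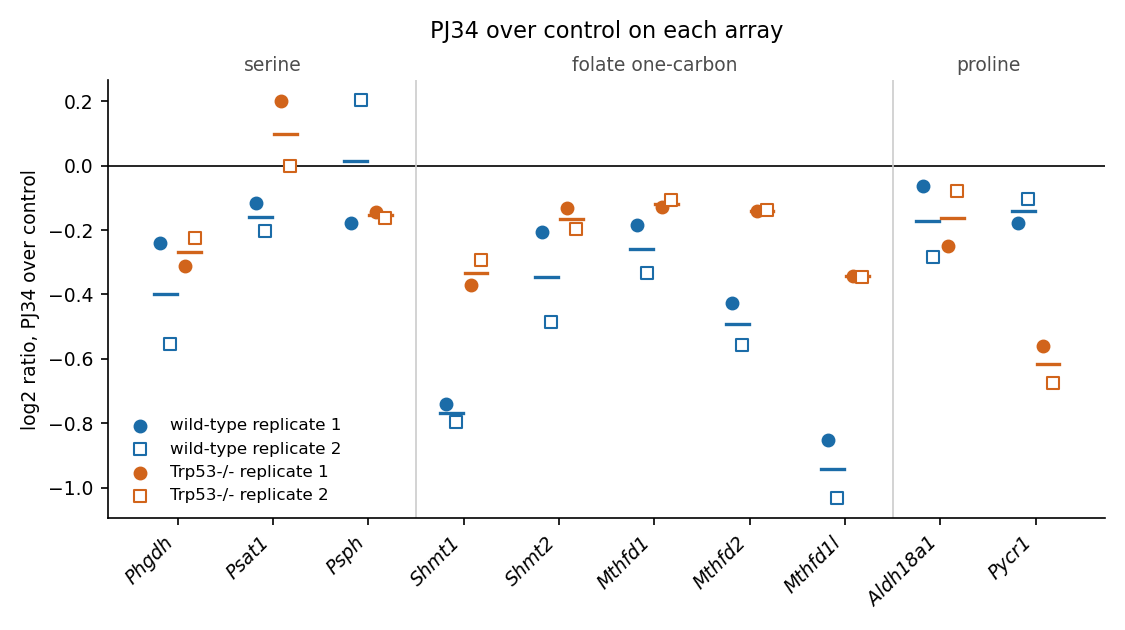
Log2 ratio of PJ34 over control (y axis) of each member gene (x axis, grouped by pathway) on the 2 wild-type (blue) and 2 Trp53-/- (orange) arrays; circles are replicate 1, squares replicate 2 and bars the mean of a genotype. After loess normalization all 5 folate enzymes lie below 0 on every array, with *Mthfd1l* lowest in wild-type at -0.85 and -1.03, and *Pycr1* is lowest in Trp53-/- at -0.56 and -0.67; under median centring *Shmt2*, *Mthfd1* and *Mthfd2* in wild-type and all 5 folate enzymes in Trp53-/- lie above 0.

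*Mthfd1l*, the mitochondrial enzyme that releases formate, had log2 ratios of -0.85 and -1.03 on the wild-type arrays and of -0.34 on both Trp53-/- arrays. Both wild-type arrays lay below both Trp53-/- arrays, and all 4 lay below 0. The mean in wild-type was -0.94 ± 0.13 (SD, n = 2), a level 1.92-fold lower with PJ34 (95% interval of the log2 ratio -1.15 to -0.74, *q* = 0.000149). In Trp53-/- it was -0.34 ± 0.0011 (interval -0.55 to -0.14, *q* = 0.0154), 1.27-fold lower.

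The second probe of *Mthfd1l* gave -0.84 in wild-type (*q* = 0.000452) and -0.32 in Trp53-/- (*q* = 0.0388), close to the first. The probes lie 7.9 kb apart on the mm9 build given in the array files. Both are listed there on the minus strand, whereas the promoter above is on the plus strand of GRCm38.p6. For every other member the strands of probe and promoter are the same. The reason for this difference was not checked. The first 30 of the 60 bases of each probe are shown for identification.
Mthfd1l A_52_P167278, chr10:6190563-6190622, minus strand: ctttgcaagagtgtgaactaaaagctaatg
Mthfd1l A_55_P2000280, chr10:6198416-6198475, minus strand: acagaaacggagcaagttaaaggcttgttc

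The ratios of *Shmt1*, the cytosolic serine hydroxymethyltransferase, were -0.74 and -0.80 in wild-type and -0.37 and -0.29 in Trp53-/-. As for *Mthfd1l*, the genotypes did not overlap. The mean was -0.77 ± 0.041 (SD, n = 2) in wild-type, 1.70-fold lower (*q* = 0.000276), and -0.33 ± 0.056 in Trp53-/-, 1.26-fold lower (*q* = 0.0154). Its second probe was lower in both genotypes too, by 0.41 (*q* = 0.00606) and 0.25 (*q* = 0.0460), which is a smaller change in wild-type than the first probe showed. The mitochondrial counterpart *Shmt2* had -0.21 and -0.49 in wild-type and -0.13 and -0.20 in Trp53-/-. It passed the test in wild-type (mean -0.35 ± 0.20, *q* = 0.0179) and not in Trp53-/- (mean -0.16 ± 0.045, *q* = 0.141), and the wild-type result rested on replicate 2, without which *q* was 0.245.

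*Mthfd2*, the mitochondrial methylenetetrahydrofolate dehydrogenase, had -0.43 and -0.56 in wild-type and -0.14 on both Trp53-/- arrays. The wild-type mean of -0.49 ± 0.092 (SD, n = 2) was 1.41-fold lower (*q* = 0.00237), and the Trp53-/- mean of -0.14 ± 0.0016 did not pass (*q* = 0.158). *Mthfd1*, the cytosolic enzyme, changed least of the 5, with -0.18 and -0.33 in wild-type and -0.13 and -0.11 in Trp53-/-. Its wild-type mean of -0.26 ± 0.10 was just past the threshold (*q* = 0.0387), and *q* was 0.0759 with Benjamini-Hochberg adjustment and 0.284 without wild-type replicate 2. The Trp53-/- mean was -0.12 ± 0.014 (*q* = 0.202).

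Of the serine synthesis enzymes, *Phgdh*, which catalyses the first step, stood at -0.24 and -0.55 in wild-type and at -0.31 and -0.22 in Trp53-/-, so that the genotypes overlapped. The wild-type mean was -0.40 ± 0.22 (SD, n = 2; *q* = 0.0114), but *q* was 0.192 without replicate 2, and its second probe gave -0.24 (*q* = 0.0782). In Trp53-/- the mean was -0.27 ± 0.062, at the edge of the threshold (*q* = 0.0501). *Psat1*, the aminotransferase of the pathway, had -0.11 and -0.20 in wild-type and 0.20 and -0.00033 in Trp53-/-. Neither mean passed (*q* = 0.142 and 0.247). Its second probe gave 0.0066 and 0.24, and neither value passed.

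The probes of *Psph*, the phosphatase that makes serine, disagreed. The brightest had -0.18 and 0.20 in wild-type and -0.14 and -0.16 in Trp53-/-, with means of 0.013 ± 0.27 and -0.15 ± 0.014 that did not pass (*q* = 0.485 and 0.175). The second, with control levels of 10.06 to 10.21, had -0.63 and -0.33 in wild-type and -0.59 and -0.40 in Trp53-/-. Its means of -0.48 (*q* = 0.00579) and -0.49 (*q* = 0.00614) were lower in both genotypes. Whether *Psph* is counted among the lowered genes thus depends on the probe, of which the first 30 bases are given in the same order.
Psph A_55_P2069350, chr5:130271441-130271500, minus strand: tacaaacattttacttgtagctttctgagg
Psph A_66_P139876, chr5:130272308-130272367, minus strand: ggaaaaatttcactttaagaaaataatcat

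In Trp53-/- NSPCs *Pycr1*, *Mthfd1l* and *Shmt1* were lower, 3 of 10 members against 10.5% of all genes, although *Mthfd1l* and *Shmt1* lay above 0 under median centring. By limma 0 were higher, against 12.8% of all genes. At an unadjusted *p* below 0.05, 4 were lower and 0 higher. The members' median was -0.16, that of all genes 0.033, and under median centring the members' median of 0.68 stood at 0.053 above that of all genes instead of below it. Without Trp53-/- replicate 1 or without replicate 2, only *Pycr1* passed. By the study's rule of more than 2-fold, 0 of 10 members were called in either genotype, where 0.499% of all genes were called in wild-type and 0.361% in Trp53-/-; without the limit on the fold, 6 and 4 members had a limma *p* below 0.05.

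*Pycr1*, the last enzyme of proline synthesis, showed the opposite order of the genotypes to the folate enzymes. Its log2 ratios were -0.18 and -0.10 in wild-type and -0.56 and -0.67 in Trp53-/-, and here the Trp53-/- arrays were the lower ones. The mean was -0.62 ± 0.081 (SD, n = 2) in Trp53-/-, 1.53-fold lower (interval -0.82 to -0.42, *q* = 0.00126), and -0.14 ± 0.054 in wild-type (*q* = 0.162). Under median centring the Trp53-/- value was -0.14, which is 0.76 below the median of all genes. The wild-type levels of *Pycr1* were low, 7.04 and 7.05 in control and 6.86 and 6.95 with PJ34, against control levels of 8.0 and 7.87 in Trp53-/-. Its second probe, not well above background in any control channel, had control levels of 6.12 to 6.32. The part of the low wild-type signal in the order of the genotypes was not tested. *Aldh18a1*, the enzyme before it, had -0.062 and -0.28 in wild-type and -0.25 and -0.077 in Trp53-/-. The means of -0.17 and -0.16 did not pass (*q* = 0.131 and 0.142).

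The values of *Pycr1* rest on 1 probe. The array has a second one, 3.9 kb away on mm9, which was left out because neither of its channels rose well above background on both wild-type or on both Trp53-/- arrays. The probe that was read is annotated in the array files with an Ensembl transcript and the other with a RefSeq transcript, and where each lies in the gene was not checked. The first 30 bases of the probe that was read, and then of the one left out, are given for identification.
Pycr1 A_51_P503896, chr11:120501179-120501238, minus strand: ctctgatttcaattcccgttaggtacacaa
Pycr1 A_55_P2169234, chr11:120497302-120497361, minus strand: aatatctcctggtgtatgtgtgttgagggt

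**Figure D2:**
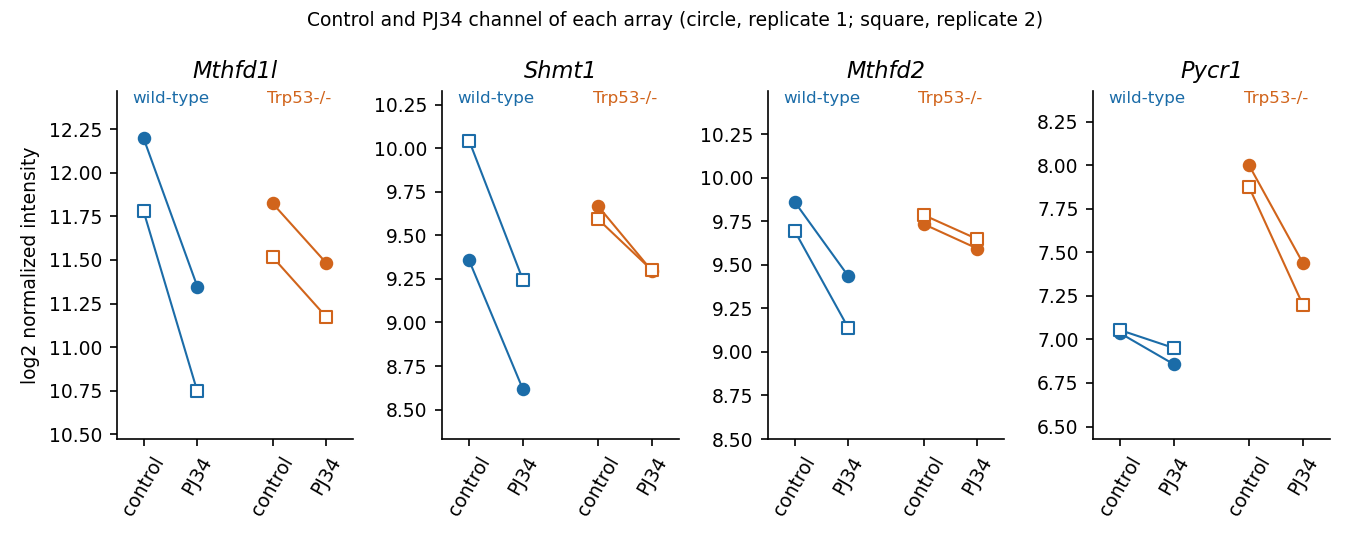
Log2 normalized intensity (y axis) of the control and PJ34 channels (x axis) for 4 members, with a line per array; blue is wild-type, orange Trp53-/-, circles are replicate 1 and squares replicate 2, and every panel spans the same log2 range. *Pycr1* starts higher in untreated Trp53-/- cells (8.0 and 7.87) than in untreated wild-type cells (7.04 and 7.05), whereas the control levels of *Shmt1* and *Mthfd2* overlap between genotypes.

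Whether the response to PJ34 differed between genotypes was tested as the difference of the log2 ratios, wild-type minus Trp53-/-. On 6 members both wild-type arrays lay below both Trp53-/- arrays and on 1, *Pycr1*, both lay above; 45.2% of all genes did not overlap between genotypes in this way. *Mthfd1l* passed the test, with a difference of -0.60 (interval -0.89 to -0.31, *q* = 0.0428). It was the only member that was lower at *q* below 0.05, where 0.47% of all genes were, and 0 were higher, where 1.27% were. By the rule of more than 2-fold 0 members and 0.47% of all genes were called. The call of *Mthfd1l* was at the threshold. Its difference lay between -0.84 and -0.51 under all alternatives, but *q* was 0.0585 with Benjamini-Hochberg adjustment, 0.136 with a normexp offset of 16, 0.106 without wild-type replicate 2, 0.100 without Trp53-/- replicate 1 and 0.121 without Trp53-/- replicate 2.

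The other differences did not pass. For *Pycr1* the difference was 0.48 (interval 0.19 to 0.76, *q* = 0.0820), for *Shmt1* -0.44 (interval -0.72 to -0.16, *q* = 0.0999) and for *Mthfd2* -0.35 (interval -0.63 to -0.071, *q* = 0.168). By the brightest probe these 3 had intervals without 0 before adjustment over all genes. The second probe of *Shmt1* gave a smaller difference of -0.16 (*q* = 0.468). That of *Mthfd1l* gave -0.52, which did not pass (*q* = 0.114). For the remaining 6 members the interval held 0, from -0.55 at the lowest bound (*Psat1*) to 0.50 at the highest (*Psph*). The members' median difference was -0.16, that of all genes -0.0067.

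**Figure D3:**
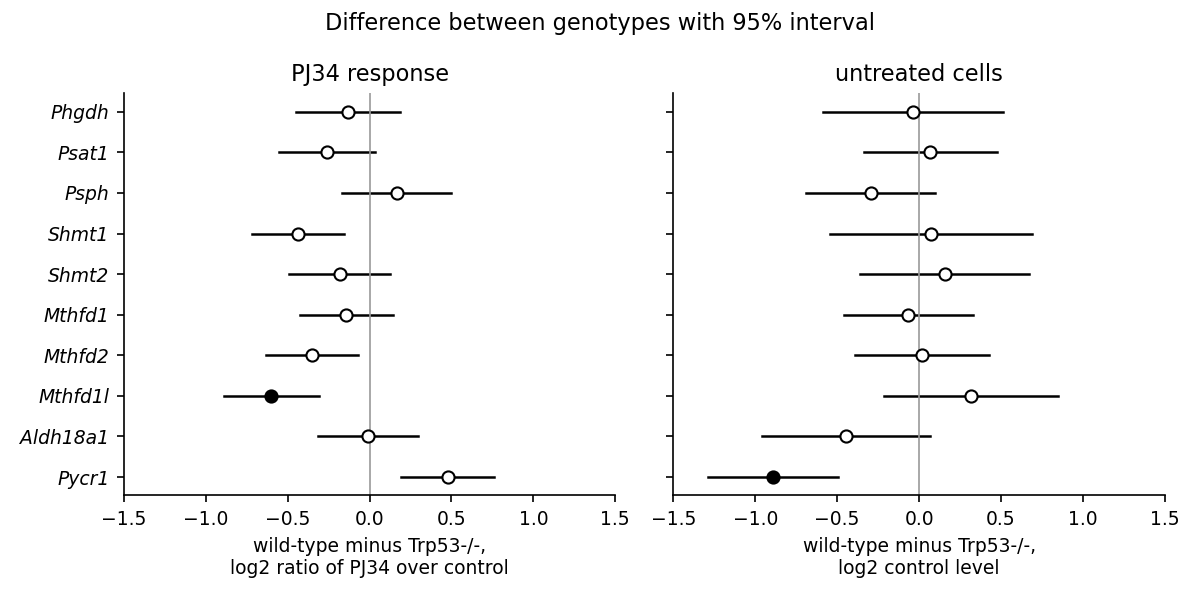
Difference of wild-type minus Trp53-/- (x axis, log2) for each member (y axis) in the PJ34 response (left) and in the control level of untreated cells (right), as estimates with 95% intervals from limma; filled points have *q* below 0.05. *Mthfd1l* is filled on the left at -0.60 and *Pycr1* on the right at -0.89.

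In untreated cells, *Pycr1* was the member that differed between genotypes. Its log2 control levels were 7.04 and 7.05 in wild-type and 8.0 and 7.87 in Trp53-/-, so that the Trp53-/- cells had 1.85-fold more (difference -0.89, interval -1.29 to -0.49, *q* = 0.0286). Thus 1 of 10 members was lower in wild-type, where 3.66% of all genes were, and 0 were higher, where 3.61% were. By limma's fit 0 were called by the rule of more than 2-fold, where 3.78% of all genes were, and 1 had a limma *p* below 0.05. The *q* of *Pycr1* was 0.0647 when arrays were scaled to their 75th percentile, and 0.347 and 0.518 without Trp53-/- replicate 1 and without replicate 2, with differences of -0.83 and -0.95. Over all genes 731 were higher and 741 lower in wild-type with all 4 arrays and 0 passed limma's test without either Trp53-/- array, so that no call given here for untreated cells remained then. In the fits without a Trp53-/- array the spread was estimated from the 2 wild-type controls alone, so the loss of calls need not rest on the array left out. The arrays of the genotypes were on different slides, and *Eif2s3y* and *Ddx3y* were well above background in both wild-type controls and in neither Trp53-/- control. Slide, sex-linked expression and genotype, and the mouse line if it differed, thus cannot be told apart in this comparison.

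*Aldh18a1* had control levels of 8.15 and 8.62 in wild-type and 8.86 and 8.80 in Trp53-/-, also without overlap, but the difference of -0.45 (interval -0.96 to 0.064) did not pass (*q* = 0.151). *Mthfd1l* had 12.20 and 11.78 in wild-type and 11.82 and 11.52 in Trp53-/-, which overlap (difference 0.32, interval -0.21 to 0.85). For the other 7 members the difference lay between -0.30 (*Psph*) and 0.16 (*Shmt2*). In all, 4 members did not overlap between genotypes, each with the lower levels in wild-type, where 56.1% of all genes did not overlap. The members' median difference was -0.0096, that of all genes 0.0037.

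Around the members, genes moved in both directions. Among the other folate and one-carbon genes, 22 of 24 passed the filter, and in wild-type 6 were lower and 0 higher with PJ34 (2 were higher at an unadjusted limma *p* below 0.05), whereas under median centring 12 were higher and 0 lower. The lower ones included *Fpgs*, which retains folates in the cell by adding glutamates (-0.65, *q* = 0.000646), the folate carriers *Slc19a1* of the plasma membrane (-0.57) and *Slc25a32* of mitochondria (-0.38), and *Atic* of purine synthesis (-0.46). The median of the list was -0.025, close to the 0.029 of all genes.

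In Trp53-/- 6 genes of this list were higher and 4 lower. These counts were 1 and 1 without Trp53-/- replicate 2, 2 and 1 without replicate 1, 3 and 4 with a normexp offset of 16, 1 and 0 with the scanner software's log ratio, and 20 and 0 under median centring. *Tyms*, the thymidylate synthase, was higher by 0.56 (*q* = 0.00176), *Aldh1l1* by 0.37, *Ahcy* by 0.36 and *Mtrr* by 0.28. *Mat2a*, which makes S-adenosylmethionine, was lower by 0.45, *Sardh* by 0.43, and *Fpgs* and *Slc19a1* by 0.34 each. 0 of the 22 differences between genotypes passed limma's *q*, and 5 were lower at an unadjusted *p* below 0.05. In untreated cells *Tyms* was higher in wild-type by 0.74, at the edge of the threshold (*q* = 0.0496). It did not pass with Benjamini-Hochberg adjustment (0.0866), with quantile normalization of the Cy3 channel alone, with no filter or a strict filter on dim probes, or without either Trp53-/- array.

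Of the genes that use serine and glycine, 16 of 18 passed the filter. *Gcat*, which splits 2-amino-3-ketobutyrate into glycine and acetyl-CoA, stood at -1.02 and -1.16 in wild-type and -0.54 and -0.61 in Trp53-/-. Its mean of -1.09 in wild-type (*q* = 6.33e-05) passed the rule of more than 2-fold, and it was lower in Trp53-/- as well (-0.57, *q* = 0.00179). In wild-type 4 genes of this list were higher: *Serinc3* (0.76) and *Serinc1* (0.50), which are membrane proteins named for the incorporation of serine into lipids, *Srr*, the serine racemase (0.40), and *Cbs*, which joins serine to homocysteine (0.36). The count of higher genes was 2 without wild-type replicate 1 or with the scanner software's log ratio, and 12 under median centring. In Trp53-/- *Cbs* was higher (0.51), and so was *Glyctk*, whose control signal reached a level well above background on none of the arrays, so that its ratio is not given. The count of higher genes in Trp53-/- was 0 without replicate 2 or with the scanner software's log ratio, and 14 under median centring, where 0 were lower. *Serinc3* differed between genotypes, with 0.89 and 0.62 in wild-type and 0.0053 and 0.12 in Trp53-/- (difference 0.69, *q* = 0.0342). This difference did not pass with a normexp offset of 16, the scanner software's log ratio, median centring or the mean of a gene's probes, nor without wild-type replicate 1 or either Trp53-/- array.

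Of the other proline genes, 9 of 11 passed the filter. *Aldh4a1*, the mitochondrial enzyme that oxidizes the proline intermediate to glutamate and a known p53 target, had 0.76 and 0.37 in wild-type and -0.47 and -0.038 in Trp53-/-. It was higher in wild-type (0.57, *q* = 0.00635), though not without wild-type replicate 1 or with the scanner software's log ratio. The difference between genotypes was 0.83 (*q* = 0.0428, and 0.0585 with Benjamini-Hochberg adjustment), and it did not pass with a normexp offset of 16, the scanner software's log ratio, median centring or the mean of probes, or without Trp53-/- replicate 1. *Oat*, which links ornithine to proline, was lower in both genotypes, by 0.56 and 0.27, but in Trp53-/- not without either array. Under median centring 0 genes of the list were lower in either genotype, and 5 and 7 were higher. In untreated cells *Prodh*, the proline dehydrogenase, was higher in wild-type by 0.76 (*q* = 0.0430, and 0.0752 with Benjamini-Hochberg adjustment), and *P4ha1*, a prolyl hydroxylase subunit, was lower (-1.01, *q* = 0.0238). Neither passed without either Trp53-/- array. *P4ha2*, another subunit, was not well above background in either channel of the wild-type arrays, and its difference is not given.

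Of the other genes of the Atf4 pathway, all 24 passed the filter. With PJ34, 16 were lower and 2 higher in Trp53-/- (median -0.39), and 9 were lower and 5 higher in wild-type (median -0.11). Under median centring 1 was lower and 15 higher in Trp53-/-, and 0 were lower and 12 higher in wild-type, with medians of 0.53 and 0.38 that are below those of all genes, 0.63 and 0.46. Without Trp53-/- replicate 2 the count of lower genes in Trp53-/- was 7, and without replicate 1 it was 12. In wild-type it was 4 without replicate 1 and 5 without replicate 2, and with the scanner software's log ratio it was 5 in Trp53-/- and 2 in wild-type. *Atf4* was lower in both genotypes, by 0.32 in wild-type (*q* = 0.0354) and by 0.50 in Trp53-/- (*q* = 0.00684), and so was *Asns*, the asparagine synthetase, by 0.64 and 0.83.

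The lowest in Trp53-/- were *Nupr1* (-1.35), *Trib3* (-0.97), *Chac1* (-0.94), *Eif4ebp1* (-0.86) and *Asns*, and the highest *Slc1a4* (0.59) and *Cebpb* (0.25). In wild-type the highest were *Sesn2* (1.01) and *Ddit4* (0.83), both known targets of p53 as well, *Slc1a4* (0.69), *Vldlr* (0.52) and *Cebpb* (0.25). In wild-type the lowest after *Asns* were *Gars* (-0.42), *Slc7a1* (-0.41), *Eif4ebp1* (-0.35) and *Aars* (-0.33). In untreated cells 5 genes were lower in wild-type, *Trib3* (-1.54), *Nupr1* (-1.45), *Atf5* (-1.26), *Chac1* (-1.14) and *Ddit3* (-1.07), and 1 was higher, *Sesn2* (1.03). These counts stand beside the untreated level of *Pycr1*, which was lower in wild-type by 0.89; the part of Atf4 in it was not tested, and no count of the untreated comparison remained without either Trp53-/- array (0 of 24).

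**Figure D4:**
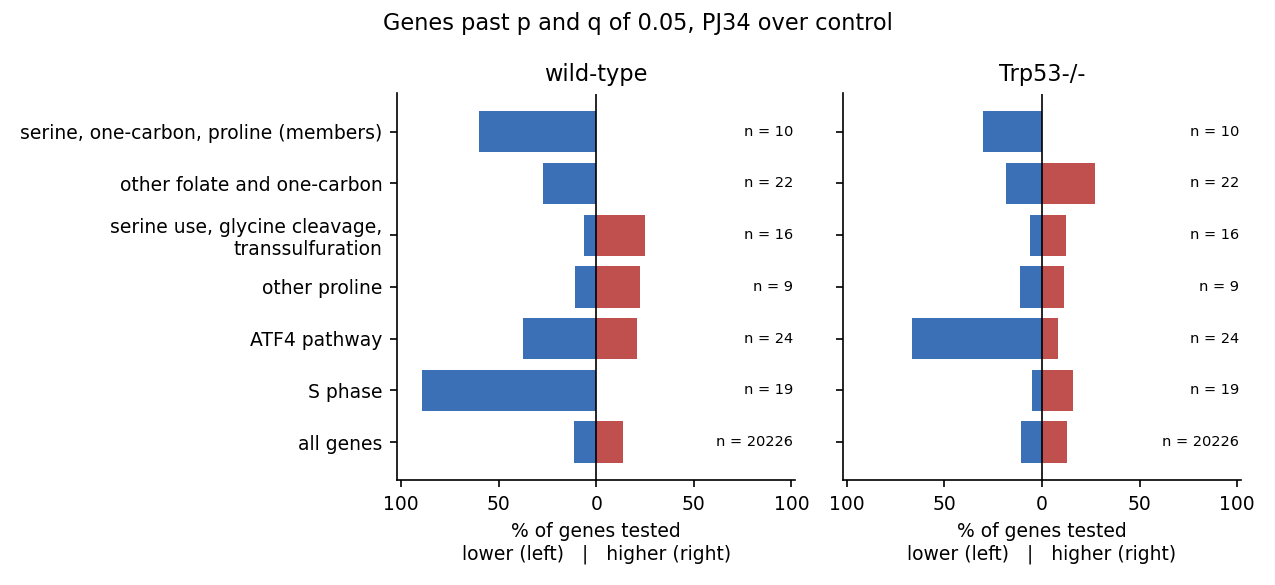
Share of the genes tested (x axis, in %) that were lower (blue, left) or higher (red, right) with PJ34 at *p* and *q* below 0.05, for the members, 5 other gene lists and all genes (y axis), in wild-type and Trp53-/-; n is the number of genes tested. After loess normalization the members reach 6 of 10 lower in wild-type and 3 of 10 in Trp53-/-, against 11.2% and 10.5% of all genes. Under median centring 0 members are lower in either genotype. In that setting 84 of 20226 genes are lower and 11950 higher in wild-type, and 89 lower and 13667 higher in Trp53-/-. The lists were chosen with earlier results of these data known.

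Genes of the S phase were measured beside the folate enzymes. In wild-type 17 of 19 were lower with PJ34 and 0 higher (median -0.45), and in Trp53-/- 1 was lower and 3 higher (median 0.095). Under median centring 0 were lower and 3 higher in wild-type, and their median of 0.22 was below the 0.46 of all genes. In Trp53-/- that setting gave 0 lower and 19 higher, with a median of 1.04 against 0.63 for all genes. The difference between genotypes was below 0 for 19 of 19, and 7 passed the test, although 0 passed with a normexp offset of 16, with the scanner software's log ratio or without Trp53-/- replicate 1, and 2 without Trp53-/- replicate 2. In Trp53-/- 1 was higher and 0 lower without replicate 2, and 0 passed without replicate 1. Under median centring 1 of the 19 differences between genotypes passed. The summed control level of the list was 163000 to 191000 intensity units in wild-type and 123000 to 134000 in Trp53-/-. The part of cell cycling in the members' values was not tested. Of the Myc family, *Mycn* was higher in wild-type (0.43, *q* = 0.00743) and in Trp53-/- (0.30, *q* = 0.0316, though not without either array). *Mycl1* was lower in wild-type (-0.34, *q* = 0.0198), though not without wild-type replicate 2, with the scanner software's log ratio or under median centring. *Myc* had -0.24 in wild-type (*q* = 0.0627) and -0.084 in Trp53-/- (*q* = 0.293).

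Markers of other cell types differed between the untreated genotypes too. The summed control level of the 7 astrocyte markers was 38800 to 39200 intensity units in wild-type and 46500 to 47300 in Trp53-/-, and 4 of 7 were lower in wild-type at *q* below 0.05. That of the 7 neuron markers was 7720 to 10100 in wild-type and 6770 to 7050 in Trp53-/-, with 2 lower and 1 higher in wild-type. That of the 7 oligodendrocyte lineage markers was 40600 to 42800 and 44200 to 51200, with 2 lower and 1 higher, and that of the 2 endothelial markers that passed the filter was 7980 to 8400 and 3100 to 3480, with 1 higher in wild-type. None of these calls remained without either Trp53-/- array. With PJ34, 3 of 7 oligodendrocyte lineage markers were lower in wild-type and 5 in Trp53-/- (3 without Trp53-/- replicate 2 and 2 without replicate 1). Of the astrocyte markers 2 were lower and 1 higher in wild-type and 2 were lower and 2 higher in Trp53-/-, and of the neuron markers 2 and 1 were higher. Fewer astrocyte and neuron markers passed in Trp53-/- without Trp53-/- replicate 2, and fewer in wild-type without wild-type replicate 1. Under median centring 0 markers of these 3 lists were lower in either genotype. Their part in the values of the members was not tested.

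Finally, the genes whose 4 log2 ratios lay nearest to those of *Mthfd1l* were sought by Euclidean distance. *Mthfd1l* was the member with the largest absolute mean ratio over the 4 arrays. The search covered 15276 genes outside the lists with both channels above background on every array. Among the nearest 5 was *Uhrf1*, which maintains DNA methylation at replication, at a distance of 0.23. *Uhrf1* had -0.78 and -0.96 in wild-type and -0.18 and -0.23 in Trp53-/-.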

How the data were processed

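Each of the 4 arrays (Agilent SurePrint G3 Mouse GE) held RNA of PJ34-treated NSPCs in Cy5 and of untreated NSPCs in Cy3. Spots were read by the authors in Feature Extraction 10.7.3.1, per the submitters' processing notes, and the intensity values they deposited are uncorrected mean spot and median background signals. The log10 ratios deposited beside them, corrected and dye-normalized by that software, were used as an alternative. Another 4 columns of normalized values are named by number only and were not used.

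Background was corrected by normexp with an offset of 50 and ratios were normalized by loess within arrays (limma 3.58.1, R 4.3.3); control and outlier spots (228 to 276 per array) were left out. Probes with at least 1 channel well above background on both arrays of a genotype were kept (27043 of 55681), and a gene was read from its brightest probe. For 26300 probes (47.2%) the symbol came from RefSeq (GRCm38.p6), otherwise from the files. Probe positions are mm9. limma's lmFit and eBayes were run on all 4 arrays with a mean per genotype (2 residual and 10.3 moderated degrees of freedom), and *q* was Storey's with lambda from 0.05 to 0.95. Control levels were compared on the Cy3 channel after loess and quantile normalization of mean intensities. The number of arrays limits the precision. The fit was tested on simulated data. Alternatives were other background, normalization, filter, probe and adjustment settings, a replicate block, a separate-channel model for control levels, and leaving out each array.

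The members and gene lists were chosen with earlier results of these data known. Genes were named by a rule. It took all members with every probe. Per list and comparison it took up to 5 per direction with the largest change among those past *p* and *q*. It also took *Atf4*, *Asns*, *Trp53*, the sex-linked genes and the 5 most like the member with the largest absolute mean ratio. Some genes under this rule are not reported here. *Cdkn1a* belongs to the list of the Myc family and p53. Same-numbered arrays did not deviate together (r = -0.18 for ratios and 0.081 for control levels), so the numbers were not used as pairs.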

Additional observations from a re-analysis of the deposited data

Results flagged for a closer look

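Differences between genotypes in the response to PJ34 (log2 ratio, wild-type minus Trp53-/-) passed limma's *p* and *q* below 0.05 for 1 member and for 8 genes of the other serine, glycine and proline lists and the Atf4 pathway. *Mthfd1l* had -0.60. *Serinc3* had 0.69 and *Aldh4a1* 0.83. In the Atf4 pathway, *Trib3* had 0.90, *Chac1* 0.73, *Sesn2* 1.01, *Ddit4* 1.64, *Nupr1* 1.13 and *Vldlr* 0.90. The 6 of the Atf4 pathway fell to 1 with a normexp offset of 16 and under median centring, to 0 with the scanner software's log ratio and to 3 without Trp53-/- replicate 2. Over all genes, 257 were higher and 95 lower, against 37 and 2 with the offset of 16, 0 and 0 with the scanner software's log ratio, 82 and 32 under median centring, and 141 and 21 without Trp53-/- replicate 2. The calls of *Serinc3* and *Aldh4a1* were lost with the offset of 16, the scanner software's log ratio and median centring too. Passing as well were 7 genes of the S phase, all lower, 1 astrocyte marker, and the p53 targets *Cdkn1a* (2.14) and *Mdm2* (1.05). With 2 arrays per genotype, single arrays were not tested as outliers.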

How the results depend on the processing

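With 2 arrays per genotype, leaving out 1 leaves a lone array that is assumed to vary like the other genotype. Leaving out each array in turn gave 3 to 6 members lower in wild-type, 1 to 4 in Trp53-/-, 0 to 1 for the difference and, for untreated cells, 0 to 2 lower and 0 to 2 higher in wild-type; the fewest in wild-type came without wild-type replicate 2. The members' median then ranged from -0.41 to -0.20 in wild-type, -0.20 to -0.16 in Trp53-/-, -0.29 to -0.055 for the difference and -0.19 to 0.045 in untreated cells. Median centring moved the median of all genes to 0.46 in wild-type and 0.63 in Trp53-/-. The members' medians moved to 0.31 and 0.68 and that of the difference to -0.42. In that setting 0 members were lower, 3 were higher in wild-type and 9 in Trp53-/-, and 0 passed the test for the difference. Median centring counted 11950 of 20226 genes as higher in wild-type and 13667 in Trp53-/-, and 84 and 89 as lower. It reversed *Phgdh* (0.33), *Psat1* (0.58), *Shmt2* (0.30), *Mthfd1* (0.40) and *Mthfd2* (0.081) in wild-type, where *Aldh18a1* (0.31) and *Pycr1* (0.089) changed sign without passing the test in either setting, and *Phgdh* (0.75), *Psph* (0.75), *Shmt1* (0.43), *Shmt2* (0.72), *Mthfd1* (0.80), *Mthfd2* (0.64), *Mthfd1l* (0.54) and *Aldh18a1* (0.52) in Trp53-/-; relative to the median of all genes *Mthfd1l* and *Shmt1* stayed lower in both genotypes (by 0.76 and 0.65 in wild-type, 0.085 and 0.20 in Trp53-/-). The scanner software's log ratio gave 3 lower in wild-type, 1 in Trp53-/- (median -0.19) and 0 for the difference. For the difference, 0 passed with a normexp offset of 16, the mean of a gene's probes or Benjamini-Hochberg adjustment, and in Trp53-/- the median was -0.18 with the offset of 16 and -0.19 with the mean of probes. In untreated cells 0 passed at the 75th percentile scaling. More than 2-fold, 0 members were called in any comparison. The causes were not tested. With the replicate number as a block, 5 members were lower in wild-type, 3 in Trp53-/-, 1 for the difference and 1 in untreated cells. Crossed numbers, chosen after seeing the data, gave 6, 4, 2 and 1, and 1 higher for the difference. As to signal, the probe read for each member was well above background in both channels of every array. That of *Pycr1* was the lowest, at 6.86 to 7.05 in wild-type, and the second probe of *Pycr1* was too dim to be used.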
